A study of Mus musculus with 5 samples.

Results

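The immune receptor genes Cd28, Ctla4 and Icos lie side by side on mouse chromosome 1, and their H3K27ac was described peak by peak in large intestinal regulatory T (Treg) cells. Members were all merged CUT&Tag peaks between 20 kb before Cd28 and 50 kb beyond Icos in GENCODE M21 (mm10). Each was given to the protein-coding gene with the nearest transcription start site (TSS). When TSSs of all gene types were used, only 17 members were nearest to Cd28, Ctla4 or Icos. This window of 353.5 kb (chr1:60696800-61050320) held 76 of the 124158 peaks in the series. Cd28 received 22 of them, Ctla4 30 and Icos 24, and no peak in the window was nearest to another protein-coding gene. The last Icos peak crossed the end of the window, and 9 further peaks nearest to these genes lay outside it and were not counted as members.

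H3K27ac is the acetylation of lysine 27 of histone H3, a mark of active promoters and enhancers. In CUT&Tag, an antibody to the mark tethers a Tn5 transposase that places sequencing adapters in the DNA nearby. The Ctrl group was Foxp3Cre Setd2 flox/+ and the KO group Foxp3Cre Setd2 flox/flox, with 2 libraries each from C57BL/6 mice aged 2 weeks. Both groups therefore carried the Foxp3-driven Cre-YFP and at least 1 floxed allele of Setd2, the methyltransferase that places H3K36me3 over transcribed genes, and no library came from mice without a floxed allele. Foxp3-driven Cre can delete in any cell that has expressed Foxp3. Each library came from 60000 CD3+CD4+YFP+ cells pooled from 3 to 5 littermates of both sexes, so single animals cannot be separated. The comparison of KO with Ctrl asked how loss of Setd2 is accompanied by changes of this active mark. The IgG library of the series was not analysed here.

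CD28 on T cells binds CD80 and CD86 on antigen-presenting cells and adds its signal to that of the T cell receptor. CTLA-4 binds the same ligands with higher affinity, is held by Treg cells at a high level, and strips the ligands from the presenting cell. ICOS binds ICOSL, recruits PI3-kinase and is raised on activated T cells and on effector Treg cells. The 3 genes belong to a single family, lie in the same orientation, and encode surface proteins with an immunoglobulin domain.

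In mm10, Cd28 (ENSMUSG00000026012.2) spans 60716800 to 60773359 on the + strand, with its coding TSS at 60746358. Ctla4 (ENSMUSG00000026011.13) spans 60887000 to 60915832 with a coding TSS at 60909025, and Icos (ENSMUSG00000026009.14) spans 60977927 to 61000320. The spans of Cd28 and Ctla4 begin with non-coding transcripts that start well before the coding TSS. Long non-coding RNA genes, Gm11579 and 2310016D23Rik, lie between Cd28 and Ctla4. Positions in the text are 1-based.

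The sequences under the signal are shown for the Ctla4 promoter and for the middle of 5 leading peaks, since the results below turn on these elements. The promoter is the 250 bases before the start site in RefSeq (GRCm38.p6, the assembly of mm10), and the other sequences are the central 300 bases of a peak. The peak table gives no summit, so the centre of a broad peak need not be where the mark was strongest. Capitals mark letters of TGTGGT (RUNX), TGANTCA (AP-1) and GGAAA (NFAT) on either strand.
Ctla4 promoter, chr1:60908775-60909024, + strand: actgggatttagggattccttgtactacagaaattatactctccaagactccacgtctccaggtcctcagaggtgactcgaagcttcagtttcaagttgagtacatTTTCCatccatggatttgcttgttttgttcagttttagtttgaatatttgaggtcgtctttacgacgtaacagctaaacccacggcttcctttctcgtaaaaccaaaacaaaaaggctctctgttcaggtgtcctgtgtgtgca
Ctla4 peak before the coding start, chr1:60898791-60899090, + strand: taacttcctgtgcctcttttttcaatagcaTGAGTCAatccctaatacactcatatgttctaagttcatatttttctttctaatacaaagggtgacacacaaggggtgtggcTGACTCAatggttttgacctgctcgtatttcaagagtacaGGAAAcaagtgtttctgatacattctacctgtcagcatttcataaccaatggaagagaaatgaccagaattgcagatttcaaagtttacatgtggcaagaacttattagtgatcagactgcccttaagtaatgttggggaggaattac
Ctla4 exon 2 peak, chr1:60912337-60912636, + strand: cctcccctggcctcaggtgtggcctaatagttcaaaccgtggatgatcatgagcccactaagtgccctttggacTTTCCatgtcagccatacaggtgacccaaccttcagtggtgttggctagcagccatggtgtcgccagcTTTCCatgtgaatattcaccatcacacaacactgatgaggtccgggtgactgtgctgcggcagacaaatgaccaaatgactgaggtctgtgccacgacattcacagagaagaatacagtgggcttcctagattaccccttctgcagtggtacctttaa
Ctla4 downstream peak, chr1:60917843-60918142, + strand: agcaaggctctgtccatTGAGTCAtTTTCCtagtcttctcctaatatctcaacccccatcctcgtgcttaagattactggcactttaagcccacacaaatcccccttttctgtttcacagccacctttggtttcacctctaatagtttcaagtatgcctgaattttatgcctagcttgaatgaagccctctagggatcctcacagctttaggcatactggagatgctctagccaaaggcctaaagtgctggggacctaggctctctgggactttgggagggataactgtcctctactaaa
Cd28 start site peak, chr1:60748963-60749262, + strand: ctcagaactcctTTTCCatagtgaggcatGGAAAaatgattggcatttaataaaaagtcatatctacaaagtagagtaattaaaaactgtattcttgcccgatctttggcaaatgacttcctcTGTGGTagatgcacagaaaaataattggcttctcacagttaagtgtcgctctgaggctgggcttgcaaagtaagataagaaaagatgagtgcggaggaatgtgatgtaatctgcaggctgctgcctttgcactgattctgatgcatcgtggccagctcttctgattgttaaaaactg
Icos start site peak, chr1:60979638-60979937, + strand: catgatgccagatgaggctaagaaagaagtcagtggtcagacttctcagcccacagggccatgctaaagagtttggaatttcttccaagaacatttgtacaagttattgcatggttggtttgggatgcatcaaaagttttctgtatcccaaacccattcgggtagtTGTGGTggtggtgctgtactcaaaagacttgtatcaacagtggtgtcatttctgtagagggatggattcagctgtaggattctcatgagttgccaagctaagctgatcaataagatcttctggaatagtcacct

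The Ctla4 promoter, within an intron of the upstream non-coding transcript, had a GC content of 42.4% and held GGAAA once. The exon 2 window, of which 214 bases are coding sequence, held GGAAA at 2 places. TGANTCA was found at 2 places in the intronic window before the coding start and at a single place, next to GGAAA, in the downstream window. The Cd28 and Icos start site windows, both in the first intron after the coding TSS, each held TGTGGT once. Over the middle windows of the 10 largest member peaks, TGANTCA was present in 3, TGTGGT in 3 and GGAAA in 8. Among the middle windows of all 74550 tested peaks, 9.6% held TGANTCA, 24.2% TGTGGT and 57.8% GGAAA. GGAA (ETS), which lies within GGAAA, was present in 10 of the 10 windows and in 94.6% of all. The forkhead letters TGTTTAC had no match in the 10 windows and one in 3.8% of all. The letters TGATAA of the GATA factors likewise had none, against 10.1% of all windows, and the E-box CACGTG none, against 4.9%. For promoters of the same 250 bases, the shares were 55.6% for GGAAA, 6.7% for TGANTCA and 14.0% for TGTGGT. These matches describe letters and not bound sites.

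By the sum of its peaks, intergenic ones included, Ctla4 was among the most heavily acetylated genes in these cells, while Cd28 and Icos ranked lower, as given below. The cluster as a whole was not ranked. The peaks of the cluster covered 132 kb and held from 3329 to 5262 counts per Ctrl library, and from 5031 to 8778 per KO library. This was 0.139% and 0.145% of all Ctrl counts (exact Clopper-Pearson 95% intervals 0.134 to 0.144 and 0.141 to 0.149) and 0.167% and 0.186% of all KO counts (0.163 to 0.172 and 0.182 to 0.19). In CPM, the counts per 1000000 counts in tested peaks after TMM scaling, the cluster reached 1510 and 1570 in Ctrl and 1870 and 2100 in KO. Each KO library thus exceeded each Ctrl library, and the share of regions of this size with that order is not given here. The intervals cover counting error only and not the spread between libraries.

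Summed over its 30 peaks, Ctla4 reached 791 and 846 CPM in Ctrl and 1060 and 1130 CPM in KO. That placed it at rank 29 of 13982 genes by mean CPM, with ranks of 49 and 41 for Ctrl and 18 and 29 for KO taken alone. Cd28 reached 364 and 418 CPM in Ctrl and 456 and 565 CPM in KO, rank 284. Icos reached 351 and 302 CPM in Ctrl and 358 and 408 CPM in KO, rank 452. For each of the 3 genes both KO values were above both Ctrl values, although for Icos KO 1 was hardly above Ctrl 1. Of all genes, 13.1% had each KO value above each Ctrl value. These ranks depend on intergenic peaks. By promoter and gene body peaks alone, Ctla4 ranked at 114, Cd28 at 237 and Icos at 1023 of 12224 genes.

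Per kilobase of peak, Ctla4 held 12.5 and 13.3 CPM in Ctrl and 16.7 and 17.8 CPM in KO. Cd28 held 10.5 and 12.1 CPM per kb in Ctrl and 13.2 and 16.3 CPM per kb in KO, and Icos 10.3 and 8.9 in Ctrl and 10.5 and 12 in KO. On this length-adjusted level Ctla4 was first in each of the 4 libraries, and its larger total also came from a wider area of 63.5 kb against 34.7 kb and 33.9 kb.

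**Figure D1:**
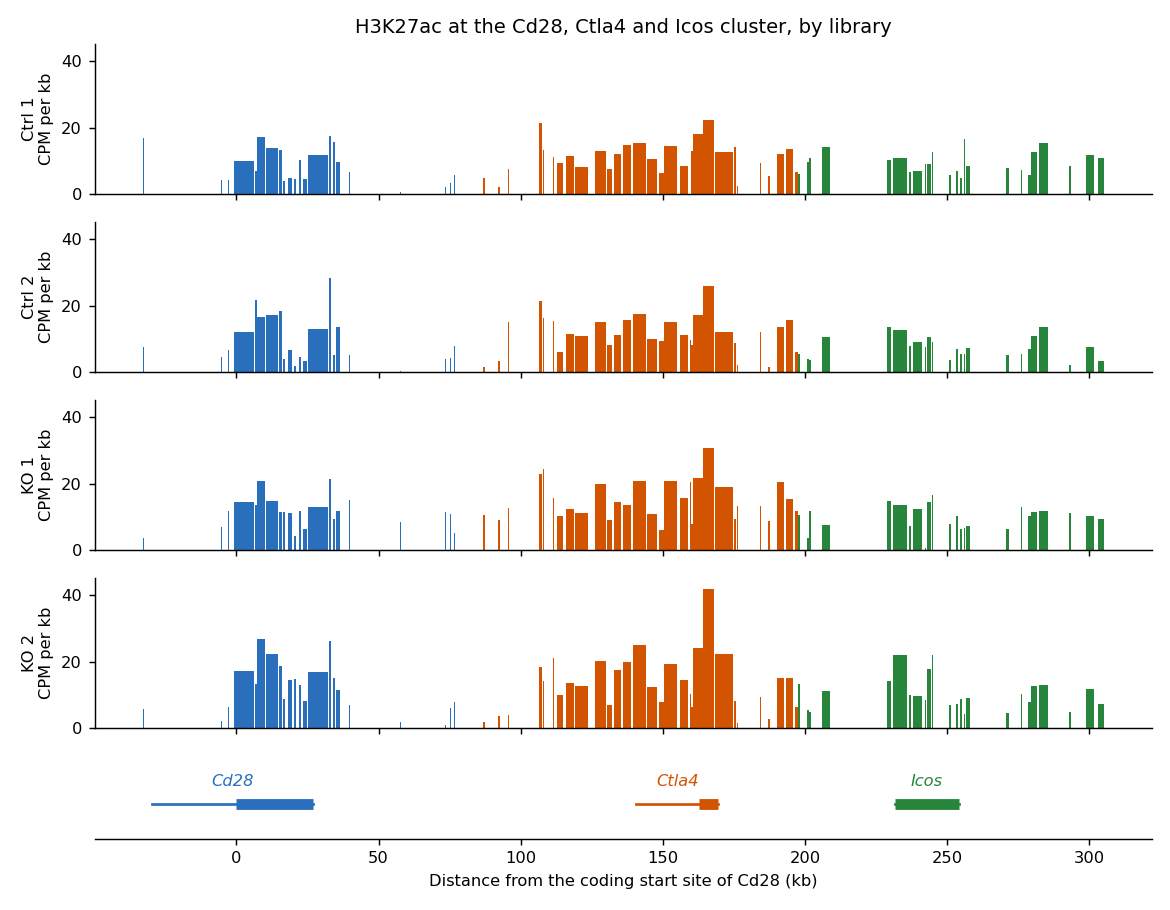
H3K27ac over the cluster in each library, as CPM per kb of each of the 76 peaks (y axis) against the distance from the coding TSS of Cd28 in kb (x axis), with peaks coloured by gene and the gene spans drawn below, thick from the coding TSS on. The highest bar in every library but Ctrl 2 is the Ctla4 peak over exons 2 and 3; in Ctrl 2 a narrow peak beyond Cd28 stands higher.

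Tested as summed counts with the quasi-likelihood test of edgeR, Ctla4 had a log2 fold change (KO over Ctrl) of 0.42 with an SE of 0.17 (unadjusted p = 0.029, adjusted p = 1). The log2 fold change of Cd28 was 0.38 with an SE of 0.20 (edgeR unadjusted p = 0.0833, adjusted p = 1), and that of Icos 0.23 with an SE of 0.20 (edgeR unadjusted p = 0.276, adjusted p = 1). None of the 3 genes passed the adjusted threshold of 0.05, nor did any other gene, since 0% of the 13982 genes were called in either direction. At an unadjusted p under 0.05, 0.529% of genes were higher and 2.65% lower in KO. Abundant regions tended towards KO in general, and an offset fitted to abundance lowered the log2 fold changes to 0.17 for Ctla4 (edgeR unadjusted p = 0.276), 0.22 for Cd28 and 0.09 for Icos. Without KO 2 the log2 fold change was 0.21 for Cd28 and 0.13 for Icos, and without Ctrl 2 it was 0.13 for Icos. A change in the number of cells carrying the mark and a change in its amount per cell cannot be told apart in these pooled samples.

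**Figure D2:**
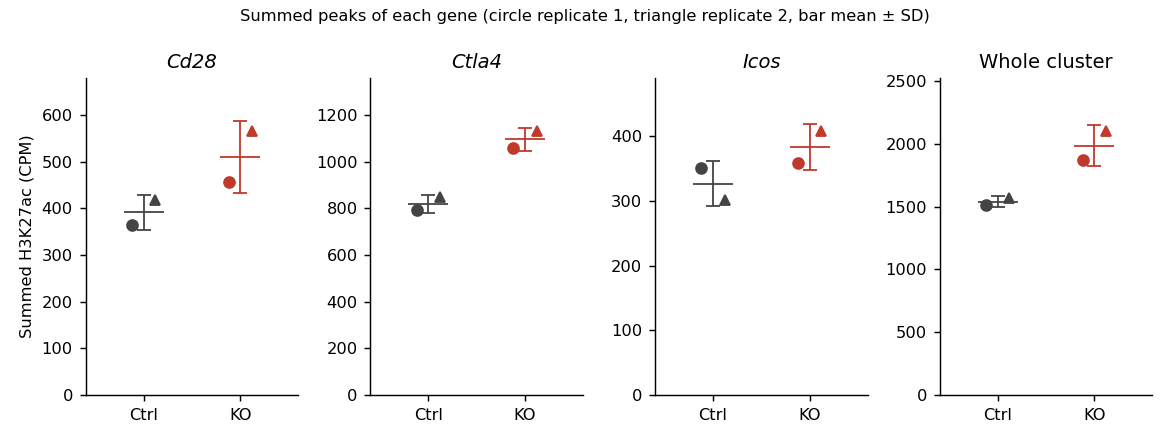
Summed H3K27ac (CPM, y axis from 0) of Cd28, Ctla4, Icos and the whole cluster in Ctrl and KO, with a circle for replicate 1, a triangle for replicate 2, and a line with a bar for the mean ± SD (n = 2). Of the 3 genes Ctla4 shows the widest gap between groups, from 846 CPM in the higher Ctrl to 1060 CPM in the lower KO library, while for Icos Ctrl 1 at 351 CPM nearly meets KO 1 at 358 CPM.

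The division of signal between the genes was compared within each library, which needs no scaling between libraries. Ctla4 took 52.5% and 54.0% of the cluster's counts in Ctrl and 56.6% and 53.7% in KO. Cd28 took 24.2% and 26.7% in Ctrl and 24.3% and 26.9% in KO, and Icos took 23.3% and 19.3% in Ctrl and 19.1% and 19.4% in KO. The difference of means was 1.88 percentage points for Ctla4, 0.166 for Cd28 and -2.04 for Icos, each with p = 0.667 in an exact two-sided permutation test, where 2 against 2 libraries allow no p below 0.333. The log2 ratio of Ctla4 to Icos was 1.33 ± 0.22 in Ctrl and 1.52 ± 0.07 in KO (n = 2 each, SD; exact permutation p = 0.667). That of Cd28 to Ctla4 was -1.07 ± 0.07 and -1.11 ± 0.16 (exact permutation p = 1), and that of Cd28 to Icos 0.26 ± 0.30 and 0.41 ± 0.09 (exact permutation p = 0.667, with an adjusted p of 1 over the 3 pairs). With this few libraries a difference between the genes in their response was not detectable.

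Of the 76 peaks, 66 held at least 10 counts in at least 2 libraries and were tested, and 10 were not. None reached an adjusted p under 0.05 in edgeR, the smallest adjusted p being 0.998. Over all 74550 tested peaks 0.00134% were called higher and 0% lower in KO. At an unadjusted p under 0.05, 5 members were higher and 0 lower in edgeR, against 1.45% and 2.79% of all tested peaks. DESeq2 gave 3 higher and 0 lower members at an unadjusted p under 0.05 and 0 after adjustment, against 0.597% and 1.37% of all tested peaks. In 34 of the 66 tested members (51.5%) each KO library was above each Ctrl library, in 3 each was below, and the groups overlapped in 29. Among all tested peaks the corresponding shares were 16.9% above and 16.4% below. The count filter used the libraries that were compared, so weak members could pass it through a single group. For example, the peaks at chr1:60762680-60763626, chr1:60786016-60786362 and chr1:61022414-61022790 passed through KO. The peak at chr1:60713436-60714024 passed through Ctrl.

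The log2 fold changes of the members ranged from -1.31 to 1.53 with a median of 0.34, and 51 of 66 were above 0. The median of all tested peaks was -0.01, and 49.2% of them were above 0. Peaks of high abundance leaned towards KO throughout the genome. With the offset on abundance the median of the members was 0.30 and 49 of 66 were above 0, while the median of all tested peaks was -0.01. The part of abundance in the values of the members was not tested. In the highest decile of abundance, which held 21 members, 74.3% of 7455 peaks had a log2 fold change above 0 and the median was 0.16. Of the 21 members in that decile 19 were above 0, and in 16 each KO value was above each Ctrl value, a state found for 27.2% of the decile. An unadjusted p under 0.05 with a higher KO value was found in edgeR for 3 of the 21 members and for 3.23% of the decile. Outside the decile, 18 of 45 members had each KO value above each Ctrl value, beside 16.9% of all tested peaks, the decile included. Neighbouring peaks lie in the same domains and share the same 4 libraries, so they are not independent observations.

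**Figure D3:**
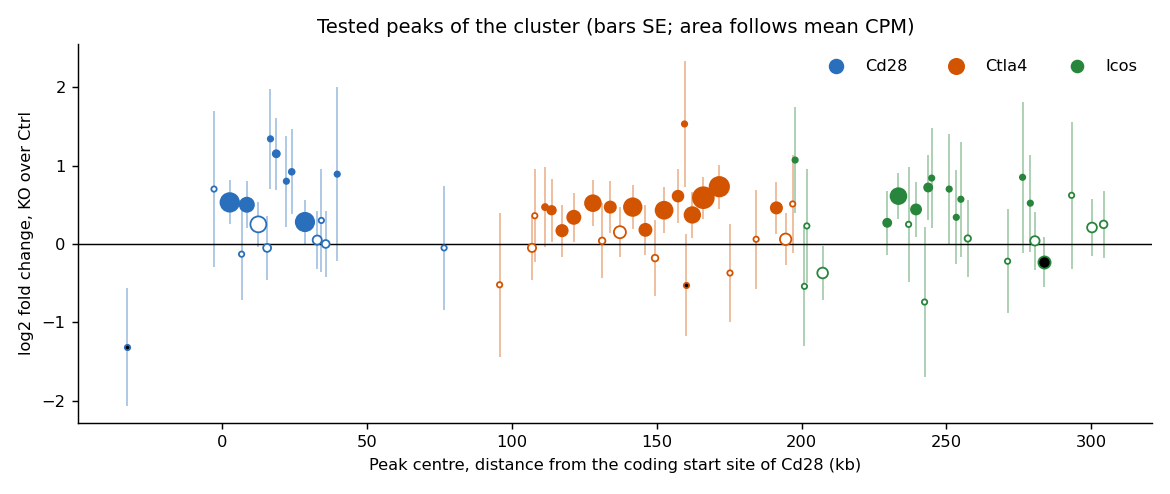
log2 fold change, KO over Ctrl (y axis, bars SE), of the 66 tested peaks against the distance of the peak centre from the coding TSS of Cd28 in kb (x axis), with symbol area following mean CPM above a minimum size. Filled symbols have each KO value above each Ctrl value, black centres both below, and open symbols overlap; the 14 large Ctla4 peaks all sit above 0, while the large peaks upstream and downstream of Icos at -0.37 and -0.23 sit below it.

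Ctla4 held most of the strong peaks. Of its 26 tested peaks 21 were above 0, and 15 had each KO value above each Ctrl value. All 14 Ctla4 peaks in the highest decile were above 0, and in 12 of them the groups did not overlap. With the offset on abundance 1 of these, at chr1:60939662-60942088, was at -0.06, from a log2 fold change of 0.06. The median log2 fold change over Ctla4 peaks was 0.36, compared with 0.30 over 17 tested Cd28 peaks and 0.27 over 23 tested Icos peaks. With the offset on abundance the order was reversed, with medians of 0.23 for Ctla4, 0.32 for Cd28 and 0.35 for Icos. Cd28 had 8 and Icos 11 peaks in which each KO value was above each Ctrl value. These shares were 57.7% for Ctla4, 47.1% for Cd28 and 47.8% for Icos. They compare with 16.9% of all tested peaks and 27.2% of the highest decile.

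The largest member by CPM lay over exons 2 and 3 of Ctla4 (chr1:60910488-60914484), exons that encode the ligand-binding and membrane-spanning parts of the protein. It held 89.1 and 104 CPM in Ctrl and 123 and 167 CPM in KO, rank 613 of all tested peaks. KO 2 was the highest library and the groups did not overlap. The log2 fold change was 0.59 with an SE of 0.27 (edgeR unadjusted p = 0.0302, adjusted p = 0.998). With 30.2 CPM per kb it was also the densest member, and 0.392% of all tested peaks were denser.

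The neighbouring peak, from exon 4 of Ctla4 to beyond the end of the gene (chr1:60914816-60921168), held 81.0 and 77.1 CPM in Ctrl and 121 and 141 CPM in KO. Here the gap between groups exceeded the gap within either. It had the smallest p of all members, with a log2 fold change of 0.73 and an SE of 0.28 (edgeR unadjusted p = 0.00828, adjusted p = 0.998). After the offset on abundance its log2 fold change was 0.51 (edgeR unadjusted p = 0.0337), and that of the exon 2 and 3 peak was 0.35 (edgeR unadjusted p = 0.132). When either Ctrl 1, Ctrl 2 or KO 2 was left out, neither of these Ctla4 peaks was under an unadjusted p of 0.05, and without KO 2 the log2 fold change of the exon 2 and 3 peak was 0.34.

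Over the coding TSS of Ctla4 (chr1:60907018-60910344) the signal was 60.2 and 57.4 CPM in Ctrl and 72.3 and 79.8 CPM in KO. All KO values were above the Ctrl values, and the log2 fold change was 0.37 with an SE of 0.29 (edgeR unadjusted p = 0.205). Over the start of the upstream non-coding transcript of Ctla4 (chr1:60885946-60890315) it was 67.4 and 76.5 CPM in Ctrl and 90.9 and 109 CPM in KO, a log2 fold change of 0.47 (edgeR unadjusted p = 0.097). Between these starts, an intronic peak that runs into the pseudogene Rpl18-ps1 (chr1:60896652-60901229) held 66.1 and 69.6 CPM in Ctrl and 95 and 88.4 CPM in KO. Its log2 fold change was 0.43 (edgeR unadjusted p = 0.131), and again the groups did not overlap.

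Signal also extended far upstream of Ctla4. The largest intergenic member, centred at -34.6 kb from the coding TSS (chr1:60872358-60876424), held 52.5 and 61.6 CPM in Ctrl and 80.9 and 82.7 CPM in KO. The KO libraries agreed closely with each other and stood above both Ctrl libraries, with a log2 fold change of 0.52 and an SE of 0.29 (edgeR unadjusted p = 0.0782). The extremes among Ctla4 peaks were weak neighbours before the coding TSS. The peak at chr1:60905771-60906207 held 0 and 4.17 CPM in Ctrl and 8.94 and 4.55 CPM in KO, from 0, 14, 24 and 19 counts. The adjacent peak at chr1:60906262-60906965 held 9.05 and 5.65 CPM in Ctrl and 5.59 and 4.55 CPM in KO, the reverse order, with a log2 fold change of -0.52 (edgeR unadjusted p = 0.419), or -0.17 without Ctrl 1.

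Cd28 had a promoter peak 7.1 kb wide, the widest member, from just before the coding TSS into the first intron (chr1:60745564-60752661). It held 70.1 and 86.6 CPM in Ctrl and 103 and 123 CPM in KO, without overlap. The log2 fold change was 0.53 with an SE of 0.28 (edgeR unadjusted p = 0.0591). Further into the gene, an intronic peak (chr1:60756896-60761065) held 57.5 and 71.4 CPM in Ctrl and 61.1 and 92.5 CPM in KO. There the groups overlapped, and the log2 fold change of 0.25 (edgeR unadjusted p = 0.382) became -0.09 without KO 2.

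The weaker peaks over the coding exons of Cd28 differed more in proportion. The exon 2 peak (chr1:60762680-60763626) held 3.62 and 3.87 CPM in Ctrl and 10.8 and 8.39 CPM in KO, and the exon 3 peak (chr1:60764420-60765910) held 7.24 and 9.82 CPM in Ctrl and 16.8 and 21.6 CPM in KO. In both, each KO library was well above each Ctrl library. Their log2 fold changes were 1.34 with an SE of 0.64 (edgeR unadjusted p = 0.0361) and 1.15 with an SE of 0.46 (edgeR unadjusted p = 0.013), and they rested on 8 to 35 and 16 to 90 counts per library. With DESeq2 the exon 2 peak had an unadjusted p of 0.0782 and the exon 3 peak one of 0.0371. The exon 2 peak, with 8 and 13 counts in Ctrl, passed the count filter only through KO, so its p-values carry that selection.

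At the 3′ end of Cd28 a broad peak reached into Gm11579 (chr1:60771619-60778491) and held 81.0 and 88.7 CPM in Ctrl and 89.4 and 116 CPM in KO. Ctrl 2 and KO 1 were nearly equal, and the log2 fold change was 0.28 (edgeR unadjusted p = 0.316), or 0.07 without KO 2. CUT&Tag fragments carry no strand, so signal of Cd28 and of this antisense neighbour cannot be told apart. The lowest member of Cd28 stood alone before the gene (chr1:60713436-60714024), with 9.95 and 4.46 CPM in Ctrl and 2.24 and 3.35 CPM in KO. Each KO value was below each Ctrl value, with a log2 fold change of -1.31 and an SE of 0.75 (edgeR unadjusted p = 0.0821). It was -0.65 without Ctrl 1, the highest library, and -1.79 without Ctrl 2.

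The start site peak of Icos (chr1:60977449-60982126) held 51.1 and 58.9 CPM in Ctrl and 64.1 and 103 CPM in KO. KO 2 stood far above the other libraries, and the log2 fold change was 0.61 with an SE of 0.29 (edgeR unadjusted p = 0.0391; DESeq2 unadjusted p = 0.0729). Without KO 2 the log2 fold change was 0.21 (edgeR unadjusted p = 0.592). The extremes of Icos were weak. An intergenic peak beside the last Ctla4 peak (chr1:60943811-60944479) held 4.07 and 3.57 CPM in Ctrl and 7.08 and 8.87 CPM in KO, a log2 fold change of 1.07 (edgeR unadjusted p = 0.11). An intronic peak (chr1:60988544-60989050) held 4.52 and 3.87 CPM in Ctrl and 0.373 and 4.31 CPM in KO, where the low value of KO 1 was a single count and the log2 fold change of -0.74 (edgeR unadjusted p = 0.436) turned to 0.03 without it.

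By position, the median difference was lower for peaks between the genes than for those in and around them. Promoter peaks, those within 3 kb of a coding TSS, had a median log2 fold change of 0.56 over 8 tested members, and gene body peaks one of 0.46 over 22. Intergenic peaks had a median of 0.19 over 36. Each KO value was above each Ctrl value in 6 promoter, 16 gene body and 12 intergenic members. Among all tested peaks this share was 16.9%, and in the highest decile of abundance 27.2%. Position was not separated from abundance here. Medians and shares by position over all tested peaks are not given, so this order is not shown to be particular to the cluster. Intergenic peaks took 41.9% and 38.1% of the cluster's counts in Ctrl and 37.9% and 33.5% in KO, so the groups only just did not overlap.

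At Icos, promoter and gene body peaks summed to 124 and 141 CPM in Ctrl and 169 and 209 CPM in KO, with a log2 fold change of 0.51 and an SE of 0.23 in a fit over such sums of 12224 genes (edgeR unadjusted p = 0.0495, adjusted p = 1). Its intergenic peaks summed to 228 and 161 CPM in Ctrl and 189 and 200 CPM in KO, with both KO values between the Ctrl values. The strongest of these, downstream of the gene (chr1:61028591-61031656), held 47.5 and 41.7 CPM in Ctrl and 35.8 and 39.8 CPM in KO, both below Ctrl, with a log2 fold change of -0.23 (edgeR unadjusted p = 0.465). The log2 ratio of gene to intergenic signal at Icos was -0.54 ± 0.49 in Ctrl and -0.05 ± 0.16 in KO (n = 2 each, SD; exact two-sided permutation p = 0.333, the smallest possible). The same ratio was 2.43 ± 0.02 and 2.74 ± 0.30 at Cd28 and 0.36 ± 0.00 and 0.54 ± 0.16 at Ctla4 (exact permutation p = 0.333 each). This division was made after the values had been seen.

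Peaks joined across gaps of up to 10 kb formed 33380 domains genome-wide. The domain of Ctla4 ran from 60852931 to 60955111, was 102.2 kb long, joined 31 peaks of Ctla4 and of the region before Icos, and ranked at 49 by mean CPM, with 0.144% of domains above it. It held 845 and 878 CPM in Ctrl and 1080 and 1170 CPM in KO, a log2 ratio of 0.39. The Cd28 domain was 45.5 kb long and ranked at 404, with 348 and 405 CPM in Ctrl and 437 and 553 CPM in KO, also a log2 ratio of 0.39. The domain over the body of Icos ranked at 1360 and held 144 and 157 CPM in Ctrl and 187 and 230 CPM in KO, a log2 ratio of 0.46. In these domains the KO values were all above the Ctrl values. The share of all domains with this order is not given here, and abundant regions tended towards KO in general. The domain downstream of Icos, which includes a peak past the window, ranked at 1800 with 162 and 115 CPM in Ctrl and 149 and 140 CPM in KO, a log2 ratio of 0.06, and its groups overlapped.

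**Figure D4:**
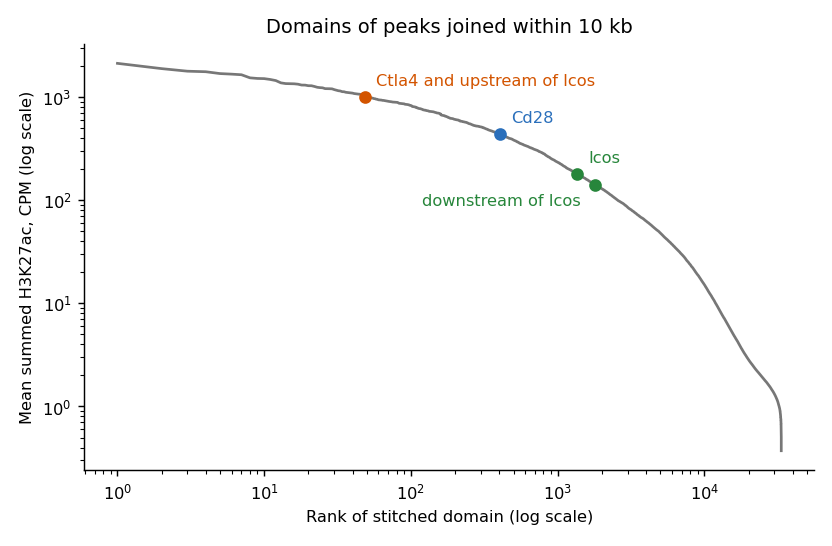
Mean summed H3K27ac in CPM (y axis, log scale) of the 33380 domains made by joining peaks within 10 kb, ordered by rank (x axis, log scale), with the 4 large domains of the cluster as points. The Ctla4 domain stands at rank 49 in the flat upper part of the curve, Cd28 at 404, Icos at 1360 and the region downstream of Icos at 1800.

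At the median, members were broader and denser than all tested peaks. The median width of the tested members was 1.38 kb, compared with 0.732 kb over all tested peaks, and 9 of them (13.6%) were wider than 4 kb, as were 2.93% of all tested peaks. Their median density was 10.8 CPM per kb, compared with 8.72 over all tested peaks. Over the 76 members, CPM followed width with a Spearman correlation of 0.93, in peaks that share the same libraries. The log2 fold change had a Spearman correlation of 0.03 with mean CPM over the 66 tested members, and of 0.14 over all tested peaks.

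The genes with the pattern most like each member gene over the 4 libraries were found by the root mean square difference of log2 deviations from the gene's mean, among 2722 genes with a mean above 100 CPM. For Cd28 the nearest was Vsir, which encodes the immune checkpoint receptor VISTA of a related family, with 432 and 486 CPM in Ctrl and 536 and 660 CPM in KO and a difference of 0.0115. Adap1 (0.0207) and Susd3 (0.0208) followed. For Ctla4 they were Cables1 (0.0268), Iqgap1 (0.0331) and Tbc1d7 (0.0333). For Icos they were Map3k8 (0.00999), which encodes the kinase TPL2, Pim3 (0.013), and Gzmb (0.0217), which encodes granzyme B. Among so many genes some come close by the order of 4 values alone.

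The wider CD28, CTLA-4 and ICOS pathway was described with a list of receptors, ligands and signalling genes. Apart from the 3 genes, 56 genes of the list were tested, with Rltpr, an older symbol of Carmil2, counted once under the latter, and 0 were called in edgeR after adjustment or at an unadjusted p under 0.05 in either direction. Of the 56, 38 had a log2 fold change above 0 and 18 below, with a median of 0.12 against -0.01 over all genes. With the offset on abundance these medians were 0.08 and 0.01. Each KO value was above each Ctrl value in 14 (25.0%) and below both in 2, against 13.1% and 16.9% of all genes.

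Among the remaining receptors of the family, Pdcd1, which encodes PD-1, held 442 and 387 CPM in Ctrl and 401 and 375 CPM in KO, and Btla held 186 and 149 CPM in Ctrl and 180 and 179 CPM in KO. Both overlapped between groups, with log2 fold changes of -0.09 and 0.10. Of the 6 ligand genes, Cd274, encoding PD-L1, held 79.2 and 109 CPM in Ctrl and 124 and 135 CPM in KO (log2 fold change 0.46, edgeR unadjusted p = 0.0993). Icosl held 91.4 and 74.1 CPM in Ctrl and 92.0 and 97.3 CPM in KO, a log2 fold change of 0.20. Cd80, whose product is shared by CD28 and CTLA-4, held 71.5 and 61.9 CPM in Ctrl and 61.9 and 56.8 CPM in KO, a log2 fold change of -0.17. In both genes the groups came within 1 CPM of each other.

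Kinases and adaptors that act at the receptor had a median log2 fold change of 0.30, with 11 of 13 above 0, and a median of 0.17 with the offset on abundance. Fyn, a Src-family kinase, was the largest of them at 1150 and 1360 CPM in Ctrl and 1290 and 1580 CPM in KO, with overlap. Lcp2, encoding the adaptor SLP-76, held 429 and 487 CPM in Ctrl and 506 and 670 CPM in KO, without overlap (log2 fold change 0.36, edgeR unadjusted p = 0.107). Trat1, an adaptor of the T cell receptor that also aids CTLA-4 transport, had 151 and 115 CPM in Ctrl and 128 and 98.0 CPM in KO, with overlap.

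Genes of CTLA-4 traffic had a median log2 fold change of 0.23, and of 0.29 with that offset. Lrba, which keeps CTLA-4 from lysosomal degradation, held 134 and 147 CPM in Ctrl and 193 and 169 CPM in KO without overlap (log2 fold change 0.36, edgeR unadjusted p = 0.139). Rab8a, a GTPase of vesicle transport, held 220 and 286 CPM in Ctrl and 295 and 374 CPM in KO (log2 fold change 0.40, edgeR unadjusted p = 0.103). In Def6 the groups overlapped, with 169 and 305 CPM in Ctrl and 230 and 405 CPM in KO.

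The other classes had medians near 0. PI3-kinase and AKT genes had a median of 0.04 over 11 genes, with Pik3cd at 426 and 499 CPM in Ctrl and 515 and 602 CPM in KO. Genes of the PKC-theta and CARMA1 branch, which leads to NF-kB, had a median of 0.08, and Prkcq held 654 and 743 CPM in Ctrl and 714 and 946 CPM in KO, with overlap. Phosphatases had a median of 0.10 over 4 genes, of which Ptpn6, encoding SHP-1, had the largest log2 fold change of 0.46 (149 and 177 CPM in Ctrl, 193 and 255 CPM in KO, edgeR unadjusted p = 0.0787). Regulators that limit CD28 or ICOS, such as the ubiquitin ligase gene Cblb (670 and 542 CPM in Ctrl, 621 and 551 CPM in KO), had a median of -0.05.

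**Figure D5:**
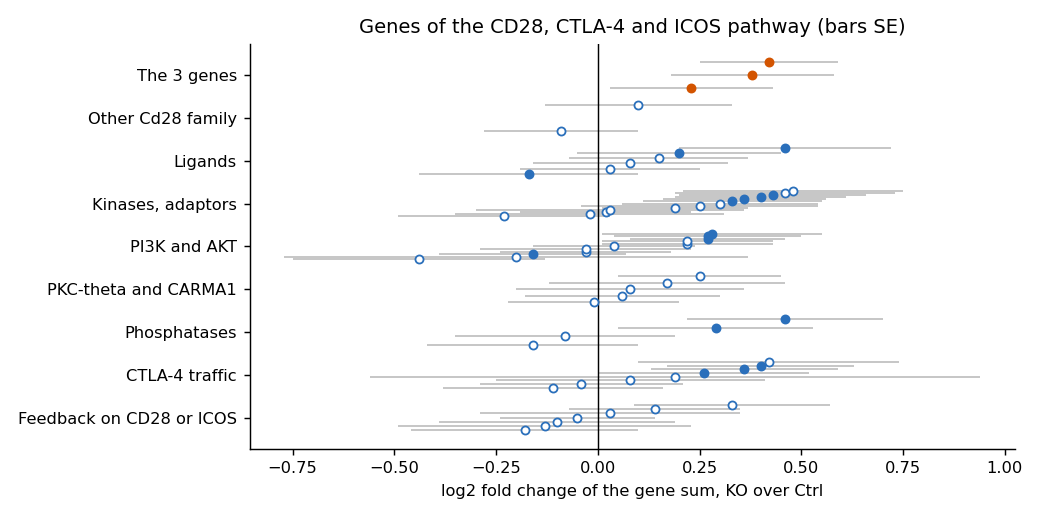
log2 fold change of the gene sum, KO over Ctrl (x axis, bars SE), for the 3 genes of the cluster and 56 other genes of the pathway, by class (y axis). Filled points have groups that do not overlap and open points overlap; the 3 genes sit at 0.23, 0.38 and 0.42, and the classes spread around 0, with a median of 0.30 for the kinases and adaptors (0.17 with the offset on abundance).

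Library totals in peaks were 2395002 to 3630447 counts in Ctrl and 3007444 to 4712473 in KO, and KO 2 was the deepest. Setd2 itself, with 4 peaks by nearest TSS, held 30.3 and 36.6 CPM in Ctrl and 33.5 and 41.7 CPM in KO, which overlap. H3K27ac at Setd2 does not measure the deletion of the floxed exons, so it is no check of the genotype. The Treg markers Foxp3, Il2ra, Ikzf2, Ikzf4 and Tnfrsf18 were present in every library and summed to 1930 and 2090 CPM in Ctrl and 2220 and 2670 CPM in KO. All 5 had a log2 fold change above 0, as did 48.8% of all genes. In 4 of them each KO value was above each Ctrl value, as in 13.1% of all genes. The median log2 fold change of the 5 was 0.34, or 0.17 with the offset on abundance. Foxp3 held 122 and 145 CPM in Ctrl and 146 and 228 CPM in KO (log2 fold change 0.49, edgeR unadjusted p = 0.091). The part of these differences in the values of Cd28, Ctla4 and Icos was not tested. General T cell markers summed to 1030 and 1510 CPM in Ctrl and 1320 and 1810 CPM in KO, and overlapped.

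The lists of other cells summed to less than the Treg and T cell lists in every library, but not all their members were low. Cd79a of the B cell list held 44.7 to 73.6 CPM (rank 5020 of 13982 genes). Csf1r of the myeloid list held 39.1 to 74.1 CPM (rank 5320). These sums do not measure the purity of the sorted cells. CD8 T cell markers summed to 16.7 and 11.6 CPM in Ctrl and 25.3 and 18.0 CPM in KO, so each KO sum was above each Ctrl sum, while Cd8a and Cd8b1 singly overlapped between groups. The part of these markers in the values of the cluster was not tested. Per library, B cell markers summed to 70.4 to 92.2, myeloid markers to 107 to 146 and epithelial markers to 76.0 to 98.4. Ms4a1 and Lyz2 had no peak. The stromal list summed to 527 to 977 CPM, nearly all of it from Pecam1, which T cells can also express, and its other members Col1a1 and Pdgfra held 1.44 to 8.14 CPM with each KO value below each Ctrl value. B cell, myeloid and epithelial sums overlapped between groups.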

How the data were processed

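H3K27ac CUT&Tag was measured in 4 libraries, 2 Ctrl and 2 KO, grouped by the genotype label. Per the study's methods, the authors trimmed the reads, aligned them to mm10 with Bowtie2, kept unique reads, removed duplicates, called peaks with MACS2 against IgG, merged them and counted reads per merged peak with bedtools. The deposited values were these raw counts, with no normalization. Tool versions are not given in the sources used here. Because peaks were called on the libraries that were compared, a peak's presence depends on its signal.

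Here, a peak entered the tests if 2 or more libraries held 10 or more counts, which left 74550. KO and Ctrl were compared in edgeR 4.0.16 (R 4.3.3) by its quasi-likelihood test, TMM scaled and without covariates, and p-values were adjusted by Benjamini-Hochberg across these peaks. The prior degrees of freedom for peaks were infinite, so the trend alone set the spread of each peak. Gene sums took the peaks nearest to a coding TSS within 100 kb and were fitted over all 13982 genes with the same factors. Promoter peaks lay within 3 kb of a coding TSS. The deposited table shows no strand. Nothing states that replicates came from separate litters, so the spread behind the p-values is that between these pools. For peaks it was the trend over all tested peaks and not the spread of the single peak. Libraries of a group differed by more than counting noise (chi-square per degree of freedom 4.31 and 4.58).

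Peaks named are those over a TSS, the 10 with the largest mean CPM, those with an unadjusted p under 0.05, and the highest and lowest log2 fold change of each gene. The peak downstream of Icos and the marker genes other than Foxp3 were named after their values were seen, and from the pathway list genes among the 3 largest or 3 smallest of a class were named. Members and lists were chosen with earlier results of these data known. Alternatives were DESeq2 1.42.0, other scalings and count filters, a robust fit, halved counts, a replicate block, other assignments and joining gaps, and leaving out each library. Code was tested on simulated counts.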

Additional observations from a re-analysis of the deposited data

How the results depend on the processing

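With 2 libraries per group and no call after adjustment, the counts at an unadjusted p are sensitive. The 5 higher members became 3 with DESeq2 (Cd28 exon 3 and both Ctla4 peaks), 3 with halved counts of 47 tested members, 3 when TSSs of all gene types were used (15 tested members), and 1 of 33 tested members at a minimum of 50 counts, where fewer peaks were tested. The number of higher members was 2 without Ctrl 1, 2 without Ctrl 2, 4 without KO 1 and 1 without KO 2, of which 0, 1, 4 and 0 were among the 5, and that of lower members ranged from 0 to 1 over these fits. A lone library was then assumed to vary like the other group. The Cd28 intronic peak (0.25) ranged from -0.09 without KO 2 to 0.50 without KO 1, and the Icos intronic peak (-0.74) from -3.34 without KO 2 to 0.03 without KO 1. Pathway genes at an unadjusted p ranged from 0 to 3 higher, 3 of them without Ctrl 2 and 3 without KO 1, and from 0 to 1 lower. The Ctla4 domain (rank 49) ranked at 74 in Ctrl 2 alone. Other named peaks kept their sign, 207 of 209 values over 17 peaks in all. The cause of these shifts was not tested, apart from the fewer peaks or libraries named.

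Labels number the replicates, but nothing says that a number marks a shared litter or day. The deviations of same-numbered libraries correlated with r = 0.264 over all tested peaks and -0.0496 over the members, and 2 pairs do not settle a pairing. With the replicate block, 16 of 66 members were higher at an unadjusted p and 2 after adjustment, beside 3490 and 152 of all 74550 peaks (3476 and 59 lower). The log2 fold change was 0.38 for Cd28 (edgeR adjusted p = 0.00124), 0.42 for Ctla4 (1.14e-05) and 0.24 for Icos (0.105), and at an unadjusted p 21 of 56 pathway genes were then higher in KO and 1 was lower, beside 1179 and 1422 of all 13982 genes. The block also raised the adjusted calls over all genes, from 0 to 447 higher and 553 lower, and left 1 residual degree of freedom.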
